A study of Mus musculus with 38 samples.

Results

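The cytosolic ribosomal protein genes were taken from the RNA and ChIP tables by name, as the symbols that begin with Rpl, Rplp or Rps followed by a number and at most 1 of the letters a, x and l. Pseudogenes, whose names carry -ps, were left out. The rule found 80 genes among 25965 in the RNA table, 49 of the large subunit and 31 of the small subunit, and the same number of genes in the ChIP table, with 341 of its 72923 promoter windows. The cells were neural stem/progenitor cells (NSPCs) derived from the subventricular zone (SVZ), a germinal layer of the adult mouse brain, and grown as neurospheres with Epidermal Growth Factor and Fibroblast Growth Factor. Male C57BL/6JBabr mice of 3 months (young adult) and 18 months (aged) gave 3 derivations each, and every derivation was made from the pooled tissue of several mice. A second cohort of the C57BL/10 strain, kept in another facility, gave 1 RNA library at each of these ages. No genotype or drug treatment separated the groups. H3K4me3, H3K27me3 and Input were deposited as 1 value per age for each promoter window, and 5mC as calls of 3 oxBS libraries per age. The cells were cultures, so the values describe expanded progenitors and not the tissue.

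Ribosomal proteins assemble with ribosomal RNA into the small subunit, which decodes the mRNA, and the large subunit, which joins amino acids. Most are encoded by 1 expressed gene each, transcribed at a high and even rate in dividing cells. Their mRNAs begin with a run of pyrimidines, the TOP motif, through which mTOR signalling controls their translation. Because these mRNAs are short and abundant they have been copied back into the genome many times. Many of the genes therefore have processed pseudogenes that share long stretches of their coding sequence.

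The RNA values are RPM, read counts scaled to a common library size, deposited on a log2 scale. The 8 libraries held 16952486 to 41053972 reads, of which 65.5% to 69.3% lay on genes. All 10 NSPC markers on the list were expressed, with summed levels of 7278 to 8910 RPM in the C57BL/6JBabr libraries, against 9.28 to 15.7 RPM for the neuronal, 5.15 to 7.59 RPM for the microglial, 11.1 to 23.1 RPM for the endothelial and 17.0 to 28.3 RPM for the pericyte markers. Markers of the oligodendrocyte lineage summed to 28.9 to 71.1 RPM and those of ependymal cells to 31.2 to 99.2 RPM, and the ages overlapped in both. Of the 5 microglial markers, Tmem119, Aif1 and Cx3cr1 were under the limit for testing, while Csf1r and P2ry12 passed it. The astrocyte markers summed to 1470 to 1702 RPM in young adult and 1227 to 1345 RPM in aged NSPCs, without overlap. The part of these cell types in the results below was not tested. Both C57BL/10 libraries stood apart from the other 6 for genes that have near copies elsewhere in the genome. For example, mt-Co3 had 1671 to 2548 RPM in the C57BL/6JBabr libraries and no read in either C57BL/10 library, while mt-Nd1, also a mitochondrial gene, had 891 to 1284 RPM and 1362 to 1673 RPM. Ages were therefore compared within C57BL/6JBabr, and the C57BL/10 results on members are set beside their sequence copies where these were counted.

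Coding stretches of 50 bases are shown for 5 members, because the strain difference varied with the share of such stretches that occur once in the genome. They were read from GRCm38, each from the coding exon stretch nearest to the middle of the transcript, and are written 5′ to 3′ on the gene's strand. The first 3 belong to the members with the largest difference between strains, and the last 2 to tested members whose coding sequence is mostly single-copy.
Rps6: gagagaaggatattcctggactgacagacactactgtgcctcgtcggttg
Rps27: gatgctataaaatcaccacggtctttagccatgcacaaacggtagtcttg
Rps23: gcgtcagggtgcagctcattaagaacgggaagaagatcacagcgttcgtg
Rpl8: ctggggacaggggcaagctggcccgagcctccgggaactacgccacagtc
Rps3: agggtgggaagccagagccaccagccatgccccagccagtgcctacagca

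The stretch of Rps6 (chr4:86855964-86856013, minus strand) had 1 further exact copy, at chr2:75191424-75191473, in the processed pseudogene Rps6-ps4. That of Rps27 (chr3:90212995-90213044, minus strand) had 2, in the processed pseudogene Gm17241 on chromosome 15 and in the gene Rps27rt on chromosome 9. That of Rps23 (chr13:90924367-90924416, plus strand) had 3, in Rps23-ps1 on chromosome 3, Rps23-ps2 on chromosome 8 and Gm14633 on chromosome X. The stretches of Rpl8 (chr15:76904896-76904945, plus strand) and Rps3 (chr7:99479280-99479329, minus strand) had none. Reads from such shared stretches cannot be told apart between a gene and its copies. Every member whose single-copy share is low is therefore uncertain in level, and its value may hold reads of its copies.

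Of the 80 members, 77 passed the filter on low values, a mean log2 RPM of at least -2 over the 6 C57BL/6JBabr libraries, as did 14858 of all genes. Their levels ran from 41.1 RPM for Rpl38 to 564 RPM for Rplp0, as means of the 6 libraries. Rplp0, which forms the base of the stalk that recruits elongation factors, had 622, 602 and 488 RPM in young adult and 681, 495 and 496 RPM in aged NSPCs. Rplp1 of the same stalk had 348, 339 and 274 RPM in young adult and 377, 269 and 278 RPM in aged NSPCs. Rplp2, its partner, was lower, at 90.1, 91.6 and 88.4 RPM in young adult and 105, 79.8 and 78.2 RPM in aged NSPCs. Per kilobase of the GENCODE transcript, Rplp1 had the highest level of the tested members, a log2 level of 9.30, followed by Rpl8 at 8.76 and Rpl23a at 8.71. The lowest levels on this scale, 4.58 for Rps15a and 5.16 for Rpl21, rest on long transcript models of 5179 and 1856 bases. The row of Rpl24 carries the Ensembl identifier of Zbtb11 in GENCODE, so its value may include a neighbouring gene, and it was left out of all comparisons of sequence.

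Together the members took 2.28%, 2.19% and 1.81% of the reads on genes in young adult NSPCs and 2.46%, 1.91% and 1.77% in aged NSPCs. The means were 2.09% ± 0.25 and 2.05% ± 0.36 (SD, n = 3 each), and the ages overlapped. The 60 rows named as ribosomal protein pseudogenes held 3592 to 4564 RPM in young adult and 3477 to 4854 RPM in aged NSPCs, beside 12437 to 15339 RPM and 12085 to 16578 RPM for the members. Library by library, the pseudogene sum moved with the member sum. In bulk RNA, fewer cells of a type and less RNA per cell cannot be told apart.

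The first comparison asked whether aging changed the RNA of these genes. None of the 77 members tested passed the limma test at an adjusted p of 0.05 (background 0.0% of 14858 genes), none had an unadjusted p under 0.05, and edgeR and DESeq2 on whole reads called none. The paper, by contrast, reports genes that differ between these ages by a limma moderated test at a false discovery rate under 0.05. The fit here called no gene at all, so the absence of called members alone says little about stability. For 69 of the 77 the log2 fold change was below 0, against 49.4% of all genes, but the changes were small. They ran from -0.14 to 0.04 with a median of -0.05, beside a median of 0.00 over all genes. Their standard errors were 0.09 to 0.20 in this fit, which leaves out the replicate number. The log2 fold change was also below 0 in 63 of 76 mitochondrial ribosomal protein genes, with a median of -0.08. So it was in 999 of 1466 other genes with a transcript under 1000 bases, with a median of -0.06. In no member did the 3 aged libraries lie entirely on 1 side of the 3 young adult libraries, as they did in 5.2% of all genes. The adjusted p of limma was 0.99998 for every member.

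The largest falls were those of Rpl29, Rpl38, Rpl28 and Rpl14. Rpl29, a heparin-binding protein of the large subunit, had 152, 153 and 131 RPM in young adult and 171, 114 and 117 RPM in aged NSPCs. This was a log2 difference of -0.14 ± 0.16 (SE), and the aged library numbered 1 was the highest of all 6. Rpl38, needed in mouse embryos for the patterning of the axial skeleton, had 43.4, 46.0 and 38.9 RPM against 49.0, 33.4 and 35.6 RPM, a log2 fold change of -0.14 with a standard error of 0.15. The changes of Rpl28 and Rpl14 were -0.13 and -0.12. At the other end, Rps29, a small zinc-binding protein, had 73.8, 69.0 and 56.4 RPM in young adult and 82.1, 60.2 and 62.7 RPM in aged NSPCs. This was a log2 difference of 0.04 ± 0.15 (SE). Those of Rps23, Rpl34, Rpl30 and Rps28 were 0.03, 0.02, 0.01 and 0.00. The stalk proteins Rplp0, Rplp1 and Rplp2 had -0.04, -0.07 and -0.05. Each of these differences was smaller than the residual SD of its gene over both ages, though those of Rpl29, Rpl38 and Rplp2 were larger than the SD of the young adult derivations alone.

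**Figure D1:**
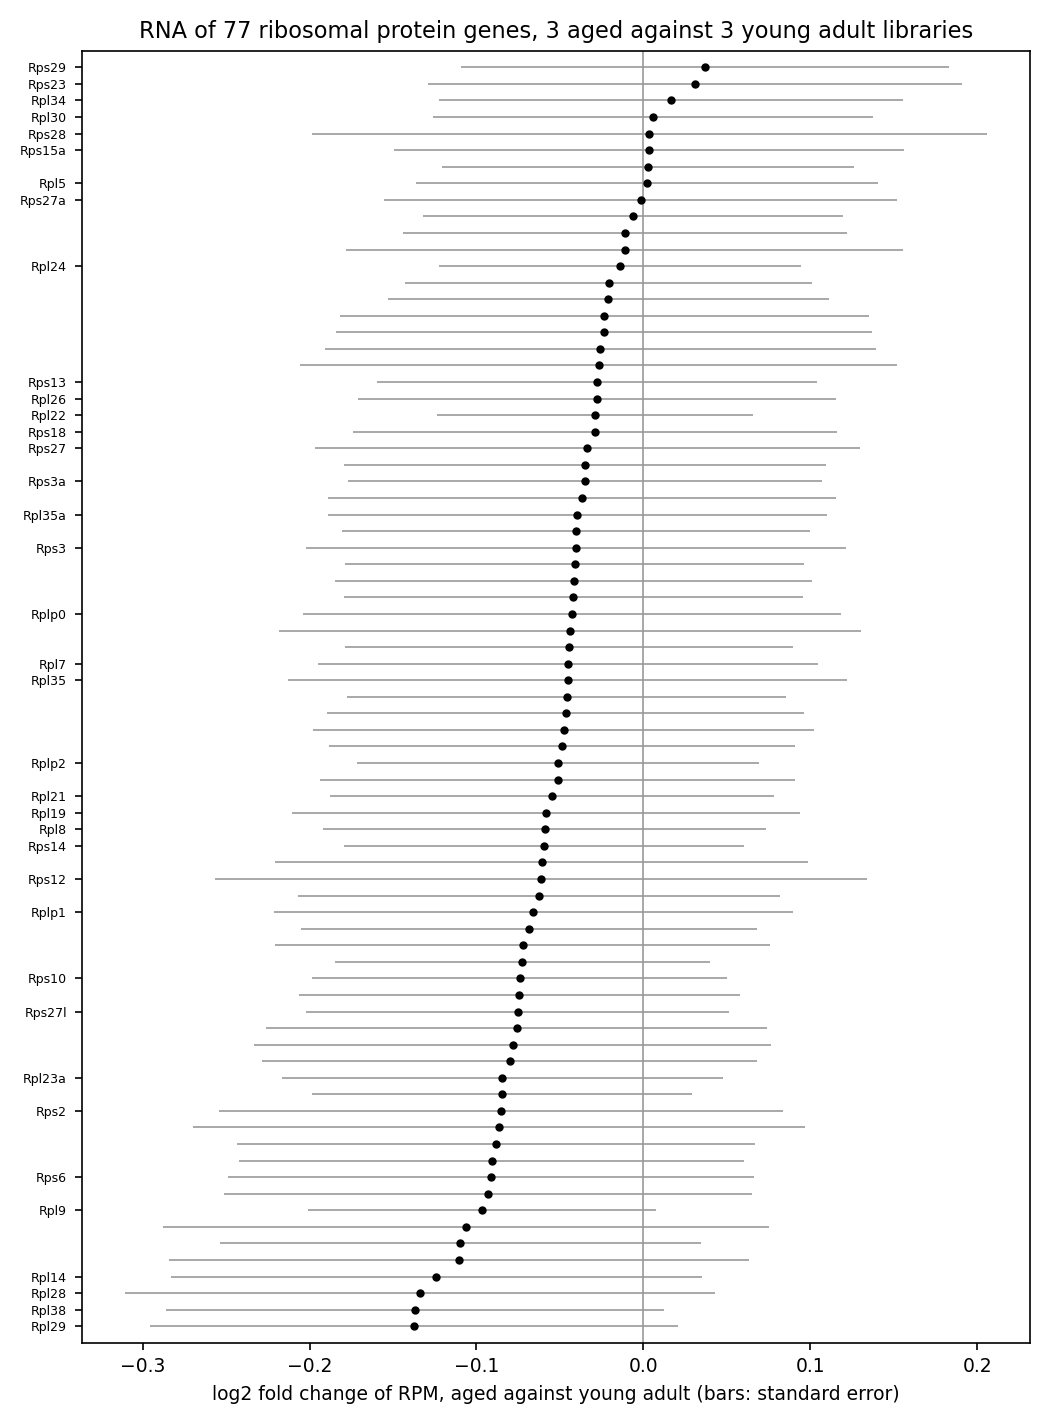
Log2 fold change of RPM between 3 aged and 3 young adult C57BL/6JBabr libraries for each of the 77 tested members (points, from limma), with the standard error as a bar, the members sorted by value and some of them labelled. The points lie between -0.14 and 0.04, and every bar reaches across 0 in this fit, which leaves out the replicate number. With the replicate number as a block the bars were shorter and some would not reach 0. Examples are Rpl9 (-0.097, standard error 0.067), Rps6 (-0.091, standard error 0.073) and Rpl7a (-0.091, standard error 0.079). No member was called in that fit either, and the smallest unadjusted p of a member was 0.116 from limma.

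The small median concealed pairs of libraries that moved apart. Between the libraries numbered 1, 75 of 77 members were higher in aged NSPCs (57.9% of all genes), with a median difference of 0.13 on the log2 scale. Between those numbered 2, only 1 of 77 was higher (44.3% of all genes), with a median of -0.22. Between those numbered 3, 21 of 77 were higher (53.0% of all genes), with a median of -0.03. The direction of the median therefore depended on single libraries. It was 0.01 without young adult library 1, 0.02 without aged library 2 and 0.04 without aged library 3, and -0.14 and -0.19 without young adult library 3 and aged library 1. Without young adult library 2 it was -0.02.

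The second comparison asked whether derivations with the same replicate number shared a level of these genes whatever their age. An F test of the replicate number in limma, with age in the model, called 53 of 77 members (22.0% of all genes). In 77 of 77 members the mean of the pair numbered 1 was the highest and that of the pair numbered 3 the lowest, an order found in 23.8% of all genes. Between these pairs the log2 difference was 0.39 in the median member, with a range from 0.16 to 0.61. It involved both subunits, with 26 of 46 large and 27 of 31 small subunit members called. With pair 3 left out, limma called none of the 77 (4.66% of all genes), and 33 had an unadjusted p under 0.05, beside 2258 of 14812 genes. With pair 1 left out 9 were called (13.9% of all genes), and with pair 2 left out 76 were (41.9% of all genes).

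The members with the largest F were Rps12, Rps23, Rps15a, Rps27a and Rps28, all of the small subunit. Rps12 had 108, 94.1 and 76.7 RPM in young adult and 118, 81.9 and 71.1 RPM in aged NSPCs (F = 23.2, adjusted p = 0.00186 from limma). Rps23, which lies at the decoding centre, had 172, 152 and 124 RPM in young adult and 185, 144 and 130 RPM in aged NSPCs (F = 18.7, adjusted p = 0.00367 from limma). Rps27a, translated as a fusion with ubiquitin, had 152, 135 and 111 RPM and 159, 126 and 113 RPM. In these genes both libraries numbered 1 were above all others and both libraries numbered 3 were below.

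Relative to each gene's mean over the 6 libraries, the members had median deviations of 0.15, 0.08 and -0.15 in the young adult and 0.27, -0.14 and -0.19 in the aged libraries. The 56 tested pseudogenes followed almost the same course, with 0.16, 0.07 and -0.15 in young adult and 0.27, -0.13 and -0.19 in aged libraries. The 76 mitochondrial ribosomal protein genes, which encode a separate ribosome, had 0.02, 0.06 and 0.03 in young adult and 0.07, -0.18 and -0.00 in aged libraries. Only 2 of these 76 were called by the same F test. The 34 ribosome assembly genes had 0.08, 0.03 and -0.11 in young adult and 0.05, 0.03 and -0.09 in aged libraries, with 3 called. The 34 translation factors had 0.06, -0.02 and -0.05 and then 0.09, -0.04 and -0.07, also with 3 called. In both lists the libraries numbered 1 were above those numbered 3, by less than in the members. The 8 ribosomal protein genes outside the name rule had 0.15, 0.09 and -0.14 and then 0.20, -0.15 and -0.15, with 3 called. This list of 8 includes Rps4y2, which GENCODE annotates as a transcribed processed pseudogene. Other genes with a transcript under 1000 bases deviated by 0.02, 0.06 and 0.04 in young adult and by 0.06, -0.14 and -0.01 in aged libraries. Across 76 members the difference between pairs 1 and 3 bore little relation to the share of single-copy coding sequence (Spearman -0.00, Pearson -0.14), to transcript length (Spearman 0.06) or to transcript GC (Spearman -0.02). These correlations are across genes of the same libraries, which are not independent.

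**Figure D2:**
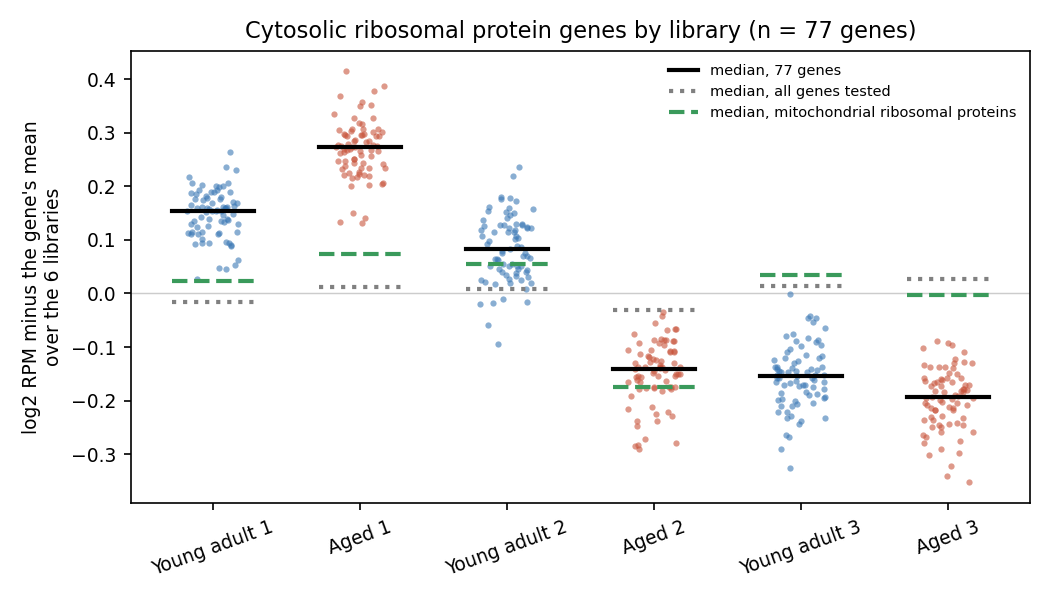
Deviation of log2 RPM from the gene's own mean over the 6 C57BL/6JBabr libraries, with 1 point per tested member (77) and young adult libraries in blue and aged libraries in red. Black lines give the member median, which runs from 0.27 in aged library 1 to -0.19 in aged library 3, while the dotted median of all genes stays between -0.03 and 0.03. Green dashes give the median of the mitochondrial ribosomal proteins, which runs from 0.07 in aged library 1 to -0.18 in aged library 2.

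The third comparison set the 2 C57BL/10 libraries against the 6 C57BL/6JBabr libraries with age in the model. Strain, housing facility and whatever else was handled separately for that cohort cannot be told apart. Of 77 members, 66 were lower in C57BL/10 (11.5% of all genes) and none higher (18.2% of all genes). Over all genes the median difference was 0.17 on the log2 scale, and 0.01 after TMM scaling, and under both scalings 66 members were lower and none higher. With TMM scaling 13.2% of all genes were lower and 4.51% higher. The member median was -2.15, with a range from -7.79 for Rps6 to 0.22 for Rps27l. The summed member level fell from 12085 to 16578 RPM in C57BL/6JBabr to 6027 and 5358 RPM in C57BL/10, and the groups did not overlap. The pseudogenes had 191 and 174 RPM there.

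Rps6, the protein phosphorylated by S6 kinase downstream of mTOR, had 341, 326 and 265 RPM in young adult and 357, 275 and 247 RPM in aged C57BL/6JBabr libraries. In C57BL/10 it had 1.40 and 1.30 RPM, a log2 difference of -7.79 with a standard error of 0.14 (adjusted p = 1.21e-10 from limma). Rps27 went from 48.7 to 74.8 RPM to 0.368 and 0.407 RPM, and Rps23 from 124 to 185 RPM to 1.40 and 1.22 RPM. Rpl23a, which lies at the exit of the nascent chain, and Rps13 complete the 5 largest falls, with log2 differences of -6.45 and -5.99. In these 5 genes every C57BL/10 library was far below every C57BL/6JBabr library, and none of their coding stretches of 50 bases was single-copy.

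At the other end stood, among others, Rps27l, Rps3, Rpl22 and Rpl8, none of which passed the test. Rps3, which has a second role in DNA repair, had 311 to 441 RPM against 413 and 366 RPM, a log2 difference of 0.12. Rpl8, near the site of peptide bond formation, had 322 to 432 RPM against 368 and 340 RPM, a log2 difference of -0.06. Rps27l, a paralog of Rps27 whose transcription responds to p53, had 65.7 to 87.4 RPM against 102 and 76.1 RPM, a log2 difference of 0.22. For these genes the strains overlapped, except that the young adult C57BL/10 library of Rps27l was above all others and that of Rpl22 (171 RPM) was above its highest C57BL/6JBabr value of 168 RPM.

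**Figure D3:**
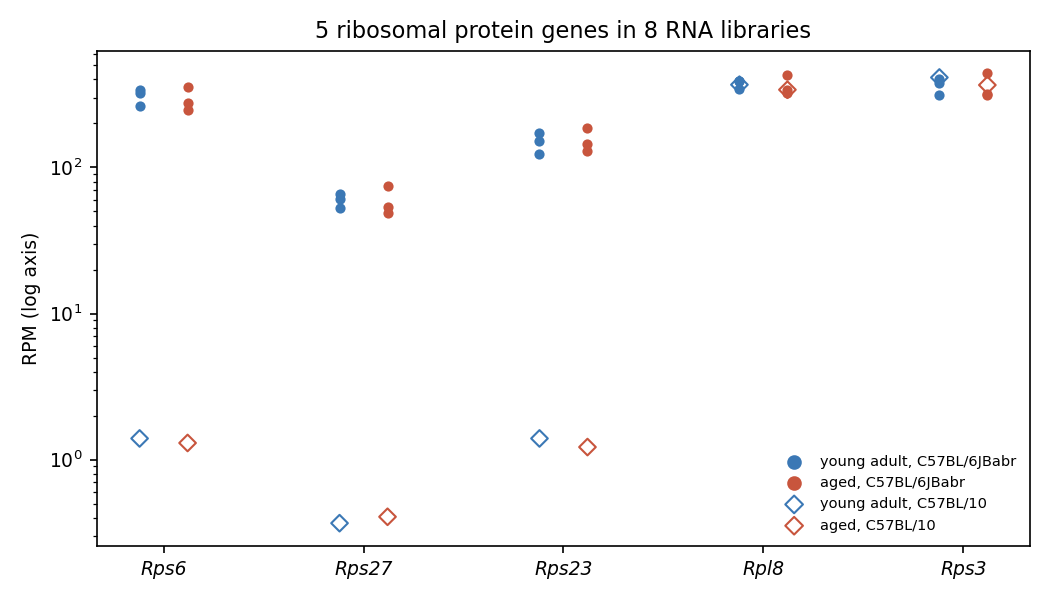
RPM of 5 members in the 8 RNA libraries on a log axis, with filled circles for C57BL/6JBabr, open diamonds for C57BL/10, blue for young adult and red for aged. For Rps6, Rps27 and Rps23 both diamonds lie at or below 1.40 RPM, far under the circles, and for Rpl8 and Rps3 they lie among or close to them.

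The difference between strains followed the share of coding sequence present once in the genome. In the 40 members with under 10% of such sequence the median log2 difference was -3.24, and all 40 were called lower. In the 26 with 10% to 50% it was -1.10, with 24 called lower. In the 8 with 50% to 90% it was -0.08, with only Rps9 called lower (-0.55, adjusted p = 0.0123 from limma), and in the remaining 2 it was 0.01 with none called. Genes that are neither members nor pseudogenes gave medians of -3.09 (191 genes), -1.29 (427), -0.07 (819) and 0.21 (11758) in the same ranges. Of these, 97.9%, 84.3%, 23.3% and 3.44% were called lower, close to the members' 100% and 92.3% in the first 2 ranges. Over the 76 members with a value, the Spearman correlation between the share and the difference was 0.88 and the Pearson correlation 0.70, across genes of the same libraries. Whether the reads of both cohorts were assigned to repeated sequence in the same way was not tested.

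**Figure D4:**
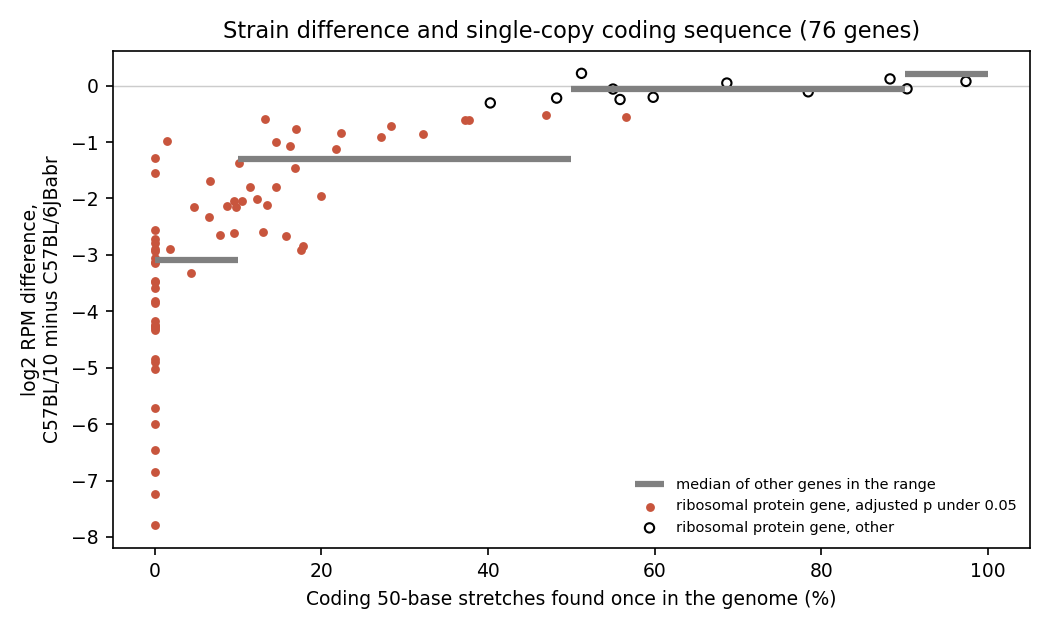
Log2 RPM difference between C57BL/10 and C57BL/6JBabr (from limma, with age in the model) against the percent of coding 50-base stretches found once in GRCm38, for 76 members. Filled red points passed an adjusted p of 0.05, and grey bars give the median of other genes in each range of the share, from -3.09 under 10% to 0.21 above 90%.

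Of the 52 pseudogenes tested, 50 were lower in C57BL/10 by the same test. Rpl21-ps10 and Rpl21-ps12 had the smallest log2 differences, -0.48 and -0.49. Rps13-ps1 had a mean of 161 RPM in young adult and 158 RPM in aged C57BL/6JBabr libraries and no read in C57BL/10. Rps6-ps1 had 102 and 95.2 RPM and then 0.110 and 0.0814 RPM. Of the genes of the same ribosome outside the name rule, Rpsa and Fau, whose coding sequence was repeated throughout, were also lower in C57BL/10, with log2 differences of -3.42 and -4.87. Gnb2l1, which encodes the scaffold protein of the small subunit and was 96.7% single-copy, had 355 to 466 RPM against 404 and 381 RPM.

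Within C57BL/10, with 1 library per age and thus no replicate check, no member differed by 1.5-fold between ages (10.2% of all genes did). In 8 of 77 the aged library was higher (47.9% of all genes), and the median difference was -0.17 on the log2 scale, beside -0.01 over all genes. Of the mitochondrial ribosomal protein genes 12 of 76 were higher, with a median of -0.16. Other genes with a transcript under 1000 bases had 553 of 1466 higher and a median of -0.10. The largest member differences were falls, of -0.49 for Rpl17, -0.47 for Rps29, -0.46 for Rpl23a and -0.43 for Rps27l. The first 3 rest on low levels, 1.75 to 3.13 RPM, while Rps27l had 102 and 76.1 RPM. The largest rise was 0.42 for Rps13, from 1.07 to 1.42 RPM.

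Rpl3l, Rpl10l and Rpl39l, paralogs known from striated muscle and testis, missed the filter. Rpl10l and Rpl39l had no read in any of the 8 libraries, and a count of 0 allows up to 3 reads, or 0.177 RPM, in the shallowest library. Rpl3l had 0 to 3 reads per library. The paralog Rps4l stands in the table under its older symbol Rps4y2, outside the rule, and is annotated in GENCODE as a transcribed processed pseudogene at chr6:148354656-148355598. It had 5.24, 4.78 and 4.10 RPM in young adult and 3.13, 2.78 and 2.58 RPM in aged NSPCs, with no overlap between ages. The change was -0.73 ± 0.17 (log2, SE), with a limma adjusted p of 0.99998, and of 0.0447 once the replicate number entered as a block. In C57BL/10 the aged library was lower by the same measure, at -0.27.

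Promoter stretches are shown for 4 members that stand at or near an end of the H3K4me3, RNA or strain values. They run from 60 bases before to 20 bases after the RefSeq start in GRCm38.p6. The marks and 5mC were measured around the start of the deposited table, which lies outside the stretch shown for Rpl35. For Rpl3l that start, chr17:24732685, lay outside its RefSeq stretch, chr17:24727766-24727845, which is not shown. Neither the window of the marks nor that of 5mC reached this stretch of Rpl3l. Capitals mark CGGAAG on either strand, the core bound by ETS factors, and CTTTC on the sense strand within 10 bases before and 20 after the start, as part of a pyrimidine run.
Rpl35: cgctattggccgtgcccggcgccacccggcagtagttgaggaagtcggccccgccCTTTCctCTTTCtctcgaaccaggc
Rpl4: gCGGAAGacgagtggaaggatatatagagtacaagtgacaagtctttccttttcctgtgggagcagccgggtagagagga
Rps6: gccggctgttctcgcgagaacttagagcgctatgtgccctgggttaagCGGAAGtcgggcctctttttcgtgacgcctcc
Rpl10l: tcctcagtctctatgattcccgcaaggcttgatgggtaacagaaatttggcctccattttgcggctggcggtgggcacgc

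Rpl35 (chr2:39005112-39005191, minus strand) was among the members with the highest H3K4me3, Rpl4 (chr9:64173327-64173406, plus strand) among those with the highest RNA level, Rps6 (chr4:86857348-86857427, minus strand) had the largest strain difference, and Rpl10l (chr12:66284382-66284461, minus strand) had no read. Promoters were found for 60 members, 1 per gene. CGGAAG on either strand within the 300 bases was present in 40 of the 60, against 17.2% of 27025 promoters. CTTTC near the start was present in 14 of the 60, against 3.66% of all promoters. TATAAA on either strand was present in 6 of the 60, against 14.2% of all promoters. The motifs did not separate expressed from silent members. Rpl9 and Rplp0, whose stretches are not shown, are expressed and had neither motif there, nor CGGAAG in the 300 bases. The silent Rpl39l, also not shown, had CTTTC near the start and CGGAAG in the 300 bases. These matches describe letters and not bound sites.

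The next comparison concerned the promoter marks, counted in 5000 bases around the start. H3K4me3, a mark of active promoters, was above Input by more than 1 on the log2 scale in 77 of 80 members in young adult NSPCs (56.2% of 25886 windows), and in the same number in aged NSPCs. These were the 77 members with RNA past the filter, whose H3K4me3 minus Input ran from 3.63 for Rplp0 to 5.63 for Rpl9, with a median of 4.89. Over all windows of genes past the RNA filter the median was 4.31, and 84.4% were above Input by more than 1 in young adult NSPCs. Rpl9 (H3K4me3 6.10 and Input 0.48), Rpl35 (6.39 and 0.80) and Rpl7 (6.53 and 1.00) had the highest values in young adult NSPCs. Each of these windows also held the start of another gene with H3K4me3, Lias, Arpc5l and Rdh10 in this order. The values therefore cannot be credited to the members alone. The silent paralogs were the 3 lowest, with H3K4me3 minus Input of -2.10 for Rpl10l, -1.61 for Rpl39l and -1.57 for Rpl3l. The window of Rpl3l did not cover its RefSeq start. Among the other members the mark thus made the same split as the RNA.

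Between ages, no member with a log2 RPM above 1 in either age passed a 1.5-fold difference in H3K4me3 (0.224% of windows passed this rule). Below that level, the silent paralogs Rpl39l and Rpl10l differed by more than 1.5-fold. All 77 expressed members were higher in aged NSPCs, by 0.10 to 0.34 with a median of 0.22, but so were 85.5% of the windows of expressed genes, with a median of 0.21, and after quantile normalization only 34 of the 80 were higher. The largest rises were those of Rpl19 (5.37 to 5.71), Rps3a (5.19 to 5.51) and Rps2 (5.80 to 6.09), and the 3 falls those of the silent paralogs Rpl39l (-0.57 to -1.35), Rpl10l (-1.46 to -2.08) and Rpl3l (-0.30 to -0.86). With Input subtracted, 6 members above that level passed 1.5-fold (2.76% of windows), besides falls of -0.84 for Rpl3l, -0.70 for Rpl39l and -0.60 for Rpl10l below it. In all 6, among them Rplp1 and Rps2, Input was lower in aged NSPCs by 0.40 to 0.67. Input itself passed the rule in 1 member, Rplp1 (0.877% of windows). The marks have 1 value per age and no replicate, so no test was made.

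H3K27me3, a mark of Polycomb repression, was below Input in 73 of 80 members in young adult NSPCs, and above it in 7 (36.7% of windows were above). Of the 77 members past the RNA filter 6 were above Input, beside 3834 of 14829 windows of genes past that filter. Rpl26, with 2.75 against an Input of 0.81, and Rpl5, with 1.92 against 0.64, stood highest and kept H3K4me3 values of 5.45 and 5.59. Rpl5 forms with 5S RNA the particle that binds Mdm2, and both genes were expressed, Rpl26 at 154 to 215 RPM and Rpl5 at 239 to 317 RPM. Rpl3l came next, with 2.29 against 1.27, in a window that did not cover its RefSeq start. The lowest were Rps15a, with -1.59 against 0.84, Rpl24, with -1.46 against 0.41, and Rps18, with -1.18 against 0.68. In 15 members, Rps18 among them, the window held the start of another gene, which shares its reads.

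Between ages no member passed the rule for H3K27me3 (1.61% of windows did), which asked for 1.5-fold and a log2 RPM above 1. A member below that level at both ages could not pass, whatever its change. The member medians were -0.08 in young adult and -0.39 in aged NSPCs, so the rule says little about stability. Over all levels, 56 of the 77 expressed members were lower in aged NSPCs (57.3% of windows of expressed genes), with a median difference of -0.31 beside -0.07. The falls were largest for Rps14 (0.30 to -1.18), Rpl8 (0.53 to -0.76) and Rps10 (-0.05 to -1.28), and the rises for Rpl21 (-0.16 to 0.62), Rpl35a (-0.17 to 0.53) and Rps15a (-1.59 to -1.06). The values of these 6 genes lay below the Input of their windows, and the depth of the ChIP libraries is unknown here.

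**Figure D5:**
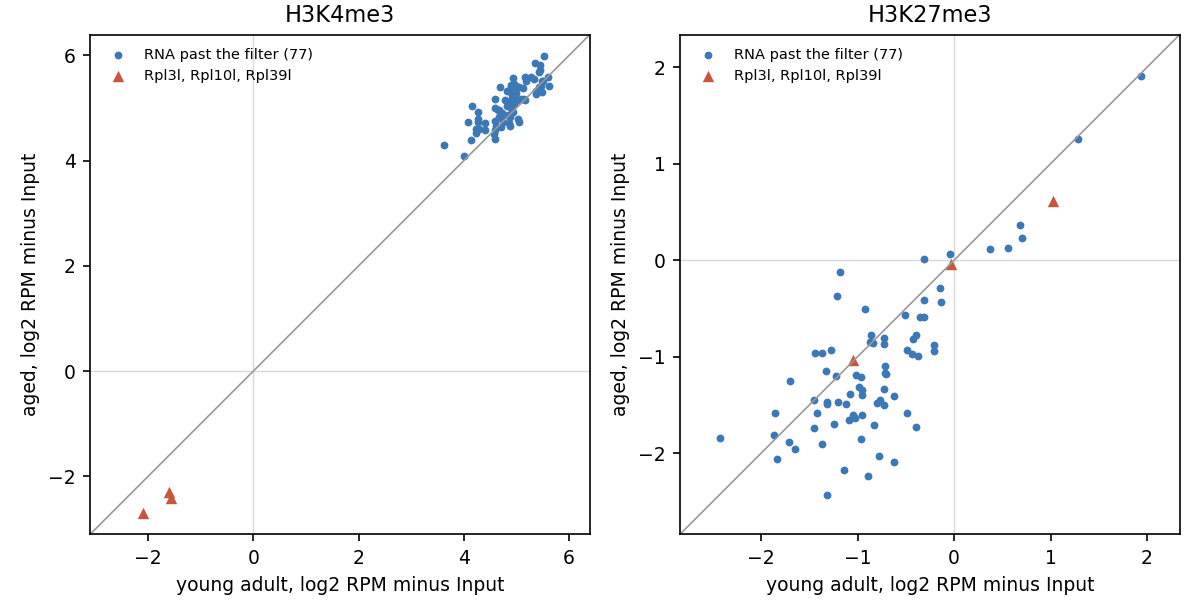
H3K4me3 (left) and H3K27me3 (right) at the promoters of the 80 members, as log2 RPM minus Input in young adult (horizontal) and aged (vertical) NSPCs, with 1 pooled value per age. The 77 members with RNA (circles) lie between 3.63 and 5.63 for young adult H3K4me3, and Rpl3l, Rpl10l and Rpl39l (triangles) lie below 0. The window of Rpl3l did not cover its RefSeq start.

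The last comparison concerned 5mC within 500 bases of the start, where 78 members had at least 10 calls in every oxBS library. Mean 5mC was under 5% in 68 of the 78 (69.2% of all covered promoters), and 23 had no methylated call at all. Pooled over these promoters, 5mC was 2.39%, 2.53% and 2.36% in young adult and 2.62%, 2.49% and 2.60% in aged NSPCs, from 3689 to 5935 calls per library. Much of this came from the silent paralogs Rpl10l and Rpl39l. Over the 76 covered members with RNA, a choice made after seeing the data, it was 1.35%, 1.47% and 1.61% in young adult and 1.84%, 1.80% and 1.56% in aged NSPCs. The values of the ages overlapped in both counts, and for all 78 the 95% Wilson interval of the library with the fewest calls was 2.14% to 3.17%. Over all covered promoters the pooled values were 6.10% to 7.30%.

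Of the 76 covered members with RNA, 68 were under 5%. The highest of the others were Rps24, at 13.7%, and Rpl18, at 12.2%, as means of the 6 libraries, both named after their values were seen. The silent paralogs stood far above these. Rpl10l had 88.2%, 95.7% and 100.0% 5mC in young adult and 89.5%, 93.8% and 95.5% in aged NSPCs. Rpl39l had 90.9%, 89.4% and 95.8% in young adult NSPCs, and its aged mean was 81.7% ± 7.6 (SD, n = 3), from as few as 10 calls per library. Rpl3l had means of 77.1% ± 19 and 83.2% ± 21 (SD, n = 3 each), from as few as 5 calls, and was not tested. The promoters of Rpl10l and Rpl39l were highly methylated at both ages, and so were the bases measured for Rpl3l. Those of Rpl3l lay away from its RefSeq start, so they may not describe its promoter. None of the 55 members that could be tested passed the quasi-likelihood test of edgeR (background 0.0% of 12139 promoters), and 2 had an unadjusted p under 0.05. Over all 12139 promoters tested, 328 did. The 2 members were Rplp2, at 0.861% ± 0.77 in the young adult and 8.26% ± 7.2 in the aged libraries, and Rpl12, with 9.15% ± 4.7 and 1.67% ± 2.9 (SD, n = 3 each, adjusted p = 0.881 from edgeR for both). In the BS libraries, which read 5mC and 5hmC together, Rplp2 had 4.60% ± 2.8 and 4.00% ± 2.2 and Rpl12 4.97% ± 2.4 and 3.50% ± 3.3 (SD, n = 3 each), and Rplp2 was not higher in aged NSPCs there. Rplp2 and Rpl12 were chosen after their values were seen.

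Among related genes, none of the 76 mitochondrial ribosomal proteins, 34 translation factors and 34 ribosome assembly genes passed the limma test for age, with median log2 fold changes of -0.08, -0.01 and -0.00. None of them had an unadjusted p under 0.05 there, and edgeR and DESeq2 were not summarised over these lists. Of the 14 regulators of ribosomal protein synthesis none passed either, and 1 had an unadjusted p under 0.05. This was Myc, which drives transcription of ribosomal protein genes in dividing cells, whose log2 fold change was 0.35 ± 0.11 (SE). The limma adjusted p was 0.99998, and 0.0452 once the replicate number entered as a block. Myc had 41.3, 44.1 and 37.0 RPM in young adult and 53.5, 56.8 and 46.4 RPM in aged NSPCs, with no overlap. Between strains the mitochondrial list had a median of 0.17, the value of all genes, with 6 lower and 5 higher. In the assembly list 4 were lower and 5 higher, with a median of 0.09, and among the translation factors 7 were lower and 2 higher, with a median of 0.04. Of the 14 regulators 3 were higher and none lower. The lowest of each of these 3 larger lists were Mrpl23 (-3.59), Fbl (-2.49) and Eif2s3x (-3.55), whose coding sequence was 0%, 13.4% and 4.76% single-copy.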

How the data were processed

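RNA was sequenced from 3 young adult and 3 aged C57BL/6JBabr derivations and 1 of each age in C57BL/10, and the ChIP and oxBS data came from the first cohort. The authors deposited log2 RPM per gene and library, log2 RPM of H3K4me3, H3K27me3 and Input per promoter window and age, averaged over replicates, and counts of methylated and unmethylated calls per CpG of GRCm38. The submitters' processing notes name bcl2fastq 2.15.0.4, FastQC 0.10.1, Trim Galore 0.3.7 and 0.4, STAR 2.3.0, Bowtie2 2.2.5 and Bismark 0.12.5. The sources used here do not give how reads with several alignments were treated. Percent methylation was recomputed from the deposited counts, and all columns used were matched to a sample or an age (0 were not).

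Whole reads were recovered from the steps of the deposited log2 RPM. Below 1000 reads, 100% of values above 0 lay within 0.02 of a whole read, and genes with no read are stored as 0.9 reads. Age, replicate number and strain were tested with limma 3.58.1 (R 4.3.3) with a mean-variance trend over the genes whose average log2 RPM reached -2, and p-values were adjusted by Benjamini-Hochberg over all of them at a threshold of 0.05. The alternatives edgeR 4.0.16 and DESeq2 1.42.0 ran on the recovered reads, where edgeR called 0 and DESeq2 4 of 14858 genes with age. Promoter calls were tested with the quasi-likelihood test of edgeR on methylated and unmethylated counts. Tests were checked on simulated data. The counts simulated for age and strain held no effect shared by libraries of a replicate number. The check therefore does not show how well these tests find changes when such an effect is present.

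Single-copy shares are the percent of 50-base stretches, taken every 5 bases from the coding sequence of 1 GENCODE vM21 transcript per gene, without a further exact copy in GRCm38. Of the 80 identifiers, 1 (Rpl24) belongs to another gene in GENCODE. Promoter sequences are from RefSeq (GRCm38.p6).

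Samples were grouped by GEO's labels. Both ages carry replicate numbers 1 to 3. Over 14858 genes, deviations from the age mean correlated within each number (0.66, 0.18 and 0.72), and since every value exceeded 0.1 the libraries were treated as paired by number in the blocked alternative. Over the 77 members alone the correlations were 0.18, -0.55 and 0.53. Derivations of an age are separate pools of mice, made on different days. Wilson intervals cover counting error only.

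The members, gene lists and tests were chosen with earlier results of these data known. The rule for named genes took the members past a threshold in a main test, described as groups, the 5 largest rises and falls by age and by strain, the 5 largest F values, the stalk proteins, the tissue-restricted paralogs and Rps27l, members missing the filter, the 3 highest and lowest of each mark and of its change, and the 3 promoters with the highest 5mC. Some of these are not reported here.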

Additional observations from a re-analysis of the deposited data

How the results depend on the processing

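The count of members called with age was 0 under each of the 15 alternatives to limma on 6 libraries: the replicate block, edgeR, DESeq2, TMM scaling, quantile normalization, no filter, a filter at 0, a pseudocount of 0.5 RPM, all 8 libraries with strain, and without each library in turn. The replicate block raised the count over all genes from 0 to 74 (DESeq2 4) and called no member, and it changed no call on 5mC (0 members). The count between strains was 66 under edgeR, TMM scaling, no filter and a pseudocount, 58 to 66 without 1 library, and 65 without Rpl24, while the count over all genes, 4405, was 2592 with edgeR, 2621 with TMM scaling, and 1446 and 1882 without the young adult and the aged C57BL/10 library. The 10 members with at least 50% single-copy coding sequence were a choice made after seeing the data. Of them, 1 was called between strains and 6 between replicate numbers. Over all 77 members, edgeR called 63 between replicate numbers (3649 of 14858 genes) and TMM scaling 61 (3344 of 14858 genes). Without replicate 1, 2 or 3, also chosen after seeing the data, the count of 53 members between replicate numbers ranged from 0 to 76, and that of 3263 genes from 690 to 6215. The share of reads on genes was 2.07% as a mean of the 6 libraries and 2.80% when the 259 most abundant other genes were left out of the total. H3K4me3 past 1.5-fold with a log2 RPM above 1 in an age was 6 members with Input subtracted and 0 with quantile normalization, with the window of highest H3K4me3 and at 2-fold. 5mC gave 0 members called within 2500 bases, at 20 calls, in BS calls and without any 1 library. The median log2 fold change of members was -0.05 with TMM scaling, -0.04 with quantile normalization and -0.05 in the 10 single-copy members, and ranged from -0.19 to 0.04 without 1 library.

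Of 12 members followed singly, 6 reversed their sign when all 8 libraries were fitted with strain, to -0.0562 for Rpl30, -0.0150 for Rpl34, 0.0201 for Rplp2, -0.0258 for Rps23, -0.0396 for Rps28 and -0.0906 for Rps29. Without 1 library in turn, the log2 fold change changed sign in 8 of the 12. It ran from -0.117 to 0.10 for Rpl30, from -0.127 to 0.123 for Rpl34, from -0.196 to 0.0346 for Rplp0, from -0.221 to 0.0236 for Rplp1, from -0.189 to 0.0252 for Rplp2, from -0.114 to 0.140 for Rps23, from -0.203 to 0.165 for Rps28 and from -0.103 to 0.121 for Rps29. It stayed below 0 but varied widely for Rpl29 (-0.325 to -0.0321), Rpl38 (-0.306 to -0.0288), Rpl28 (-0.352 to -0.0184) and Rpl14 (-0.294 to -0.0106). The cause of these changes was not tested. Depth limits the members at the low end in C57BL/10, and 5mC where a library has about 10 calls. Whether it limits the H3K27me3 values near 1 RPM is not known, since the depth of the ChIP libraries is unknown here.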
